A study of Mus musculus with 2 samples.

Results

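The miR-106b-25 and miR-106a-363 clusters are paralogs of the growth-linked miR-17-92 cluster, and 6 of their mature microRNAs (miRNAs) were followed by name through the deposited array files: mmu-miR-106b-5p, mmu-miR-93-5p, mmu-miR-25-3p, mmu-miR-106a-5p, mmu-miR-20b-5p and mmu-miR-363-3p, where mmu stands for mouse. Of these 6, 5 had probes under their own name among the 1247 mouse miRNAs on the array, and 4 were well above background on both arrays. The tissue was cartilage peeled from the knee joints of male mice at 8 weeks of age, and 1 Agilent array of 1 colour was run for a sample labelled Col2a1Tsc1KO and 1 for a control labelled wildtype. Per the series' design text the knockout lacks Tsc1, a brake on the growth kinase complex mTORC1, specifically where Col2a1, the gene of the main cartilage collagen, directs the deletion. The line that drives the deletion and the number of mice behind each sample are not given in the sources used here. With 1 array per group no difference below has a replicate check and no p-value was computed. Errors are standard errors (SE) over the spots of a probe, which hold technical noise alone.

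A miRNA silences mRNAs that pair with its seed, bases 2 to 8 from its 5′ end. The miR-17 seed family represses brakes on cell division such as Cdkn1a, and the miR-25 family, which has another seed, represses the cell-death gene Bcl2l11. In mouse the miR-106b-25 cluster is made from an intron of Mcm7, a gene of the replicative DNA helicase that is active in dividing cells, so its 3 miRNAs start from 1 host transcript. The miR-106a-363 cluster has a transcript of its own on the X chromosome, and its output is usually low in adult tissue.

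The mature sequences are shown because the seeds divide the 6 miRNAs into 2 families that cut across the clusters, and because the bases outside the seed decide which probes can tell them apart. They are from RefSeq, build GRCm38.p6, are written 5′ to 3′, and have the seed in capitals.
miR-106b-5p: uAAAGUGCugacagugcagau
miR-93-5p: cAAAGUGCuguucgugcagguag
miR-106a-5p: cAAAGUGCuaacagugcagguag
miR-20b-5p: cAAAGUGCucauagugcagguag
miR-25-3p: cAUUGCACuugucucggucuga
miR-363-3p: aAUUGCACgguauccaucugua
The closest relatives in the miR-17-92 cluster follow.
miR-17-5p: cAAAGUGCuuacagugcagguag
miR-20a-5p: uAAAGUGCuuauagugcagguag
miR-92a-3p: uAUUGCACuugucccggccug

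The first 4 share the seed AAAGUGC with miR-17-5p and miR-20a-5p, and 7 of the 1679 mature mouse names in the sequence table carry it. miR-25-3p and miR-363-3p share AUUGCAC with miR-92a-3p, a seed carried by 6 names. The hairpins Mir25, Mir93 and Mir106b lie on the minus strand of chromosome 5 between positions 138165321 and 138165818, a span of 498 bases inside Mcm7 (138164583 to 138172111). Mir363, Mir20b and Mir106a lie on the minus strand of chromosome X between 52741693 and 52742567, a span of 875 bases that also holds Mir92-2, Mir19b-2 and Mir18b. The mature miR-106b-5p occupies positions 138165787 to 138165807, miR-93-5p 138165574 to 138165596 and miR-25-3p 138165332 to 138165353. On chromosome X, miR-20b-5p occupies 52742159 to 52742181 and miR-363-3p 52741697 to 52741718.

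Some of these sequences are nearly the same. Counted from the 5′ end, with the member's base first, miR-106a-5p differs from miR-17-5p only by A10U, and miR-20b-5p differs from miR-20a-5p by C1U and C10U. miR-93-5p differs from miR-17-5p by G10U, U11A, U12C and C13A, and over its 21 bases miR-106b-5p differs from miR-17-5p by U1C, G10U and A20G. miR-25-3p differs from miR-92a-3p at 3 of 21 bases, and miR-363-3p at 11 of 21.

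The array probes are DNA and pair with the 3′ end of a miRNA, which is where the probes of the family overlap. The shown set holds the probe that cannot separate 2 of these miRNAs and the pair that must do so by 1 base, in capitals.
miR-17-5p, 13-base probe: ctacctgcactgt
miR-20b-5p, 19-base probe: ctacctgcactatGagcac
miR-20a-5p, 19-base probe: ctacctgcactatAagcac
Both miR-17-5p probes, of 12 and 13 bases, are fully complementary to miR-106a-5p as well, and the scanner files list positions at both loci for them. No probe carries the name miR-106a-5p, so its level cannot be told apart from that of miR-17-5p. The probes of miR-106b-5p, miR-93-5p, miR-25-3p, miR-20b-5p and miR-363-3p are each fully complementary to 1 mature name alone. The miR-20b-5p probes meet miR-20a-5p with 1 mismatch, and those of miR-106b-5p meet miR-17-5p and miR-106a-5p with 2. Both miR-17-5p probes also meet miR-20a-5p and miR-20b-5p with 1 mismatch. The miR-20a-5p probes meet miR-17-5p and miR-20b-5p with 1. How much a mismatched relative adds to the signal was not tested.

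On the knockout array miR-20b-5p and miR-93-5p carried less signal than on the control array, by 2.15-fold and 1.64-fold at the main scaling, which set both arrays to 1 common 75th percentile of the 476 probes that passed the background filter on each. miR-25-3p was 1.28-fold lower and miR-106b-5p 1.11-fold lower at that scaling, and both turn higher on the knockout array when the arrays are left unscaled, set to the spike-ins, set to the percentile of all probes, or read from the software's gene totals. miR-106b-5p turns so also with summed probe totals and in the authors' deposited log2 values. The order of the 4, with miR-20b-5p lowest, then miR-93-5p, miR-25-3p and miR-106b-5p, was the same at the main setting and under all 14 alternatives. Alternatives that only add a constant, such as no scaling, spike-ins or median scaling, could not change this order. Of the 4, miR-20b-5p alone was past 2-fold at the main scaling, on the lower side, and it was under 2-fold in 8 of the 14 alternatives, such as -0.69 with no scaling and -0.59 with gene totals on the log2 scale. Over all 257 miRNAs well above background on both arrays, 17.5% were at least 2-fold lower and 15.6% at least 2-fold higher, so 1 of 4 is near the share of all miRNAs. That balance rests on the scaling, since with none 5.06% of the 257 were at least 2-fold lower and 22.96% at least 2-fold higher, and with spike-ins 5.45% were lower and 21.4% higher. At the main scaling all 4 stood below 0, as did 59.1% of the 257. The 4 had a median log2 difference of -0.53 at the main scaling, against -0.22 for the 257.

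mmu-miR-106b-5p, a repressor of Cdkn1a, is the first of the Mcm7 miRNAs. Its 17-base probe had unscaled intensities from 443 to 517 on the knockout array (median 479, 19 spots) and from 380 to 436 on the control array (median 412, 20 spots). Its 16-base probe ran from 224 to 268 (median 245) on the knockout array and from 197 to 213 (median 205.5) on the control array. As deposited, every knockout spot of both probes not marked as an outlier was thus brighter than every such control spot. Spot counts and ranges, here and below, leave out the spots marked as outliers. After scaling, which lowers each knockout value against the control by 0.41 on the log2 scale, the ranges overlapped, at 384 to 448 on the knockout array and 438 to 503 on the control array for the 17-base probe. The log2 difference, knockout minus control, was -0.16 ± 0.01 at the main scaling and 0.25 with none, so the sign of this miRNA rests on the scaling.

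mmu-miR-93-5p has the same seed and the same host transcript. Its 16-base probe ran from 376 to 558 (median 491.5, 20 spots) on the knockout array and from 524 to 578 (median 551, 17 spots) on the control array, unscaled. Its 15-base probe ran from 85.7 to 115 (median 101) on the knockout array and from 123 to 139 (median 132) on the control array. The control spots were brighter throughout on the 15-base probe, while the spot ranges of the 16-base probe overlapped before scaling. After scaling neither probe's ranges overlapped, and the probes gave log2 differences of -0.64 ± 0.04 and -0.79 ± 0.03. Their mean, -0.71 ± 0.02, was negative under all 14 alternatives, from -0.71 to -0.16.

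mmu-miR-25-3p, the third product of the Mcm7 transcript, carries the other seed. Its 18-base probe ran from 537 to 621 (median 575.5, 18 spots) on the knockout array and from 488 to 544 (median 514.5, 20 spots) on the control array, unscaled. Its 17-base probe ran from 129 to 185 (median 152) on the knockout array and from 141 to 167 (median 158.5) on the control array. Before scaling the brighter probe was thus higher and the dimmer one slightly lower on the knockout array. After scaling both were lower, at -0.24 ± 0.02 and -0.46 ± 0.04, and the ranges of neither probe overlapped. The mean of -0.35 ± 0.02 became 0.06 with no scaling, and the authors' deposited log2 values were equal at 8.11 on both arrays. The deposited columns also share exact values between different miRNAs, such as 8.12828 for miR-93-5p on the control array and miR-92a-3p on the knockout array. An equal value there therefore need not mean equal measured signal.

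From the X-linked cluster, mmu-miR-20b-5p was the 1 member with a measured difference, and it had the largest of the 4. Its 20-base probe ran from 294 to 349 (median 335.5, 20 spots) on the knockout array and from 462 to 564 (median 507.5, 20 spots) on the control array, unscaled. Its 19-base probe ran from 146 to 204 (median 176) on the knockout array and from 283 to 310 (median 293) on the control array. The ranges of neither probe overlapped, before or after scaling. The log2 difference was -1.10 ± 0.02, rank 38 from the lowest of 257, and -0.69 with no scaling.

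mmu-miR-363-3p, which shares its seed with miR-25-3p and miR-92a-3p, was not well above background at any spot kept on either array. Its 19-base probe had unscaled intensities from 0.0946 to 12.3 (median 4.51) on the knockout array and from 3.66 to 14.4 (median 10.85) on the control array. Its 18-base probe had medians of 3.22 on the knockout array and 4.505 on the control array. Negative-control spots had medians of 4.93 on the knockout array and 5.015 on the control array, so no fold is given, and a level too low for the array cannot be told apart from none.

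**Figure D1:**
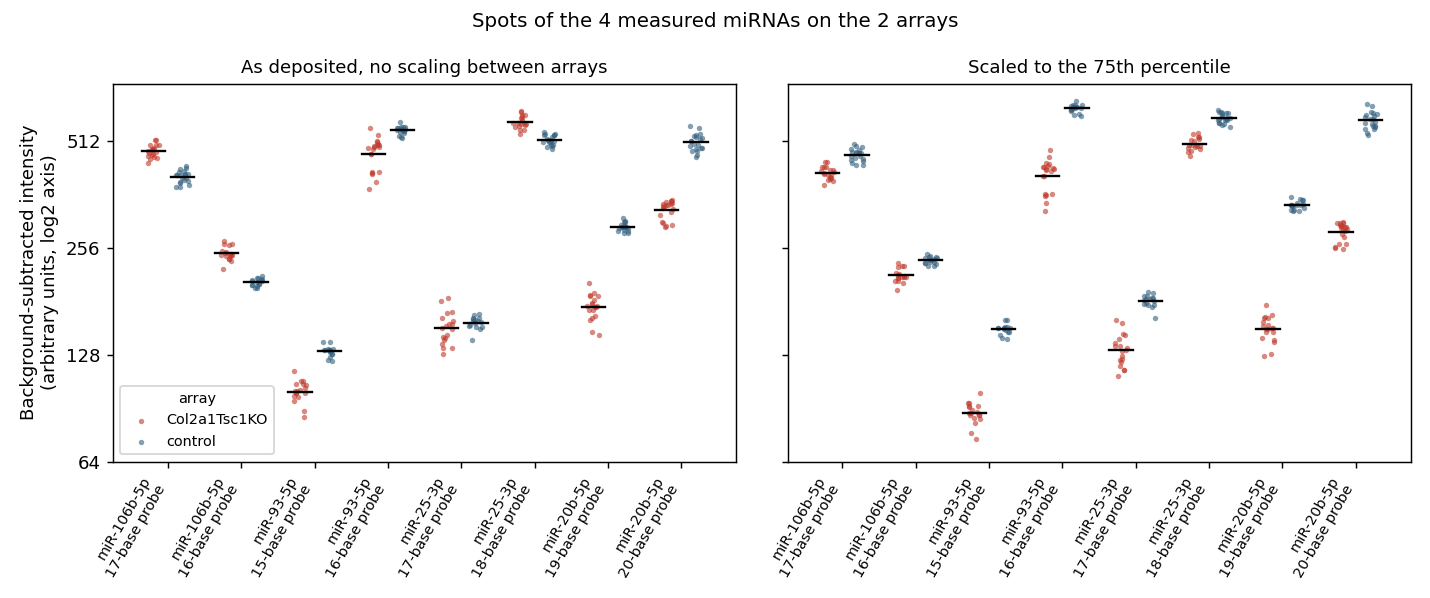
Background-subtracted intensity (log2 axis, arbitrary units) of every usable spot of miR-106b-5p, miR-93-5p, miR-25-3p and miR-20b-5p, by probe, for the Col2a1Tsc1KO array (red) and the control array (blue), as deposited and after scaling to the 75th percentile. Points are spots and black bars are means of log2 intensity. The miR-20b-5p probes are lower on the knockout array in both panels, while miR-106b-5p is higher as deposited and lower after scaling.

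A constant between the arrays cancels when miRNAs are compared within them, so the differences among the members do not depend on which constant is used. Against miR-106b-5p, the log2 difference of miR-20b-5p stood at -0.95 ± 0.02, which is 1.93-fold lower on the knockout array, and this value ran from -0.998 to -0.80 over the 14 alternatives. The 3 miRNAs of the Mcm7 transcript also differed among themselves by more than the spot error. miR-93-5p stood -0.56 ± 0.03 from miR-106b-5p and -0.36 ± 0.03 from miR-25-3p, and miR-25-3p stood -0.20 ± 0.02 from miR-106b-5p. The spot error leaves out the spread between the 2 probes of a miRNA, which for miR-25-3p gave -0.24 and -0.46. With the brightest probe alone, miR-25-3p stood at -0.24 and miR-106b-5p at -0.17, so the gap between them depends on the probe. With 1 array per group the spread between mice behind these values is unknown.

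Within each seed family the differences spread widely. The list of miR-17 seed names used here leaves out miR-6383, which also carries the seed. Of the 6 names listed, 5 had probes. All 5 were measured, from -1.69 ± 0.06 for miR-17-5p to -0.16 for miR-106b-5p, with a median of -1.10. At the main scaling 3 of these 5 were at least 2-fold lower, against 17.5% of all 257, and with no scaling 1 was, miR-17-5p, against 5.06%. Of the 6 miR-25 seed names, miR-92a-3p at -1.03 ± 0.02 and miR-25-3p at -0.35 were measured, and miR-363-3p, miR-32-5p, miR-92b-3p and miR-367-3p were well above background on neither array.

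The miR-17-92 cluster on chromosome 14 is the nearest comparison. Its 7 measured products had a median of -1.13 and a range of -1.72 to -0.76, and 5 were at least 2-fold lower, against 17.5% of all 257. With no scaling 2 of the 7 were, miR-17-5p and miR-18a-5p, against 5.06%, and over the 14 alternatives the count ran from 1 to 5. miR-20a-5p, the near twin of miR-20b-5p, stood at -1.13 ± 0.01, and the pair differed by 0.02 ± 0.02, about their error. This near equality rests on the setting: miR-20b-5p stood above miR-20a-5p in log2 difference by 0.22 with quantile normalization, 0.29 with normexp and quantile normalization together and 0.20 in the authors' deposited log2 values. Their 19-base probes differ at the 1 base shown above, so how far each reports the other cannot be told apart. The 13-base probe that pairs with both miR-17-5p and miR-106a-5p ran from 22.3 to 43.1 (median 34.05) on the knockout array and from 71.6 to 90.3 (median 81.25) on the control array, unscaled, with no overlap. The 12-base probe was well above background at 78.9% of its spots on the control array and at none on the knockout array. miR-93-5p and miR-106b-5p stood 0.98 ± 0.07 and 1.53 ± 0.06 above miR-17-5p in log2 difference, and miR-25-3p stood 0.68 ± 0.03 above miR-92a-3p. The gaps to miR-17-5p were 0.82 for miR-93-5p and 1.45 for miR-106b-5p with quantile normalization alone, and 0.13 and 0.60 when normexp background correction came before it. With a floor in place of the filter they were 0.21 and 0.77, and with the software's gene totals miR-17-5p reversed to 5.69.

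**Figure D2:**
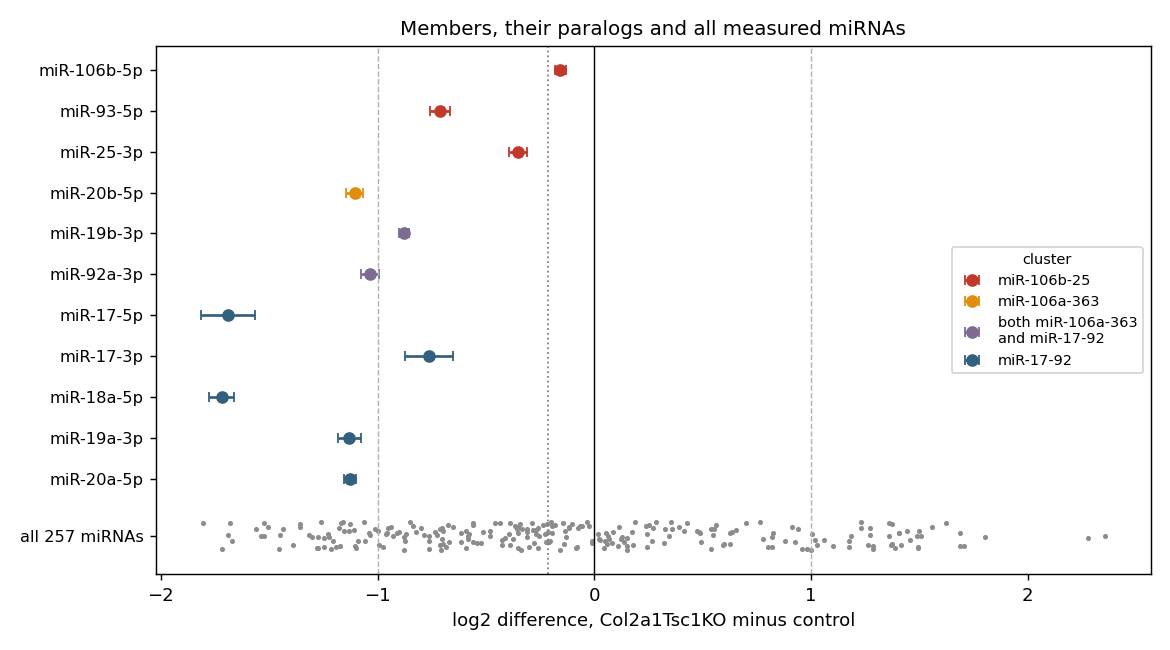
Log2 difference (Col2a1Tsc1KO minus control, main scaling) of the 4 measured members, of the products that the miR-106a-363 and miR-17-92 clusters share, of the other measured miR-17-92 products, and of all 257 miRNAs (grey points, spread vertically for view). Bars are 2 SE over spots, dashed lines mark 2-fold and the dotted line the median of all miRNAs, -0.22. The Mcm7 miRNAs lie between -0.71 and -0.16 and miR-20b-5p at -1.10, beside miR-20a-5p at -1.13.

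The other products of both clusters gave little signal. Of 12 further mature names, 10 were well above background on neither array: the passenger arms miR-106b-3p, miR-93-3p, miR-25-5p, miR-106a-3p, miR-20b-3p and miR-363-5p, both arms of miR-18b, miR-19b-2-5p and miR-92a-2-5p. Outlier spots aside, no spot of their 30 probes passed 14.8 on the knockout array or 16.2 on the control array, unscaled. The dimmest probe well above background averaged 20.3 on the knockout array and 21.8 on the control array. The remaining products, miR-19b-3p at -0.88 ± 0.01 and miR-92a-3p at -1.03, have identical copies on chromosomes X and 14, so the share of each locus in their signal cannot be told apart. Of the names that belong to the X-linked cluster alone, miR-20b-5p was thus the 1 with probes above background, and the part of miR-20a-5p in that signal was not tested.

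By the rule of nearest log2 difference to the members' median, over these 2 arrays, the miRNAs most like the members were miR-5097 at -0.54 ± 0.04, miR-15b-5p at -0.52 ± 0.01 and miR-3098-5p at -0.51 ± 0.02. A value from 2 arrays marks out few miRNAs: 99 of the 257, the 4 members included, lay between the lowest and the highest member.

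Of the chondrocyte markers, all 4 were measured on both arrays, and their scaled intensities summed to 5268 on the knockout array and 2322 on the control array. Most of that sum was miR-140-5p, at 2713 on the knockout array and 1046 on the control array, and miR-140-3p, at 2403 and 1197. Of the 4, 1 was below 0 in log2 difference, miR-455-5p at -0.03 ± 0.14. Markers of other cells differed in both directions. Summed leukocyte markers (4 of 4 measured) stood at 4454 on the knockout array and 9633 on the control array. Most of that sum was miR-223-3p, at 3632 on the knockout array and 8163 on the control array, and while 3 of the 4 were below 0 in log2 difference, miR-150-5p stood at 0.64 ± 0.06. Summed skeletal muscle markers (4 of 4) stood at 737 on the knockout array and 1410 on the control array, with 3 of 4 below 0 and miR-206-3p at 0.05 ± 0.08. Red cell markers (2 of 4 measured on both arrays) summed to 3472 on the knockout array and 2340 on the control array, and endothelial markers (2 of 2) to 1977 on the knockout array and 1555 on the control array. Every marker with probes was well above background on at least 1 array. The part of other cells in the members' differences was not tested, and in bulk tissue fewer cells of a type and less RNA per cell cannot be told apart.

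**Figure D3:**
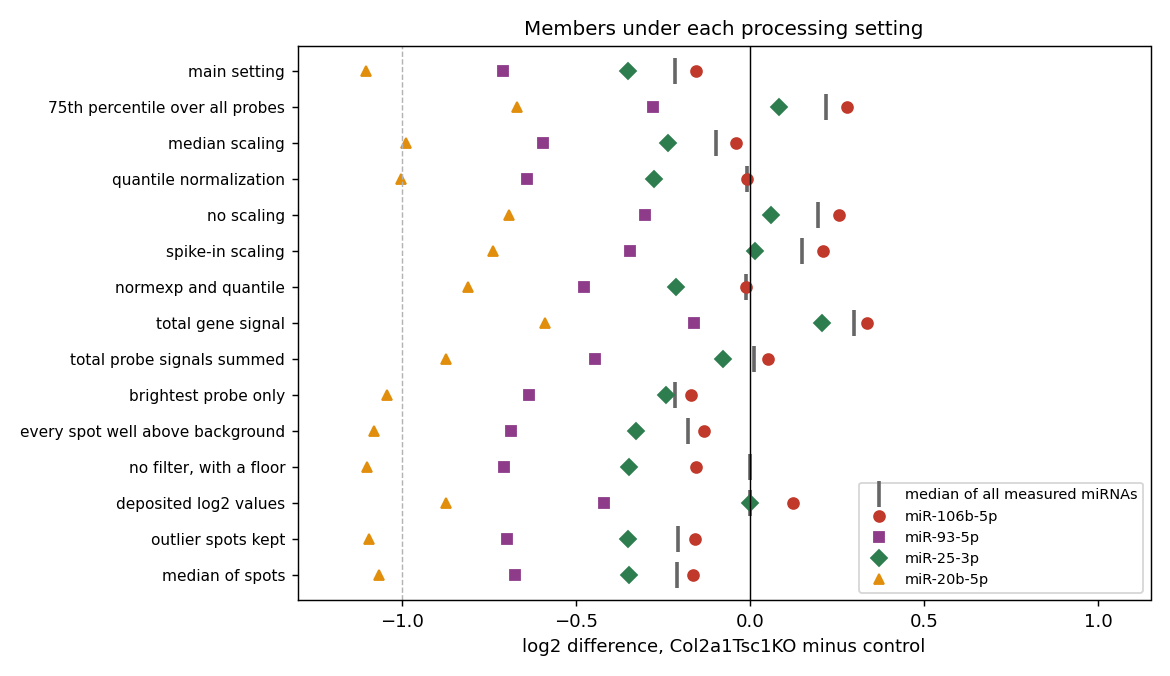
Log2 difference (Col2a1Tsc1KO minus control) of miR-106b-5p, miR-93-5p, miR-25-3p and miR-20b-5p at the main setting and under each of 14 alternatives, with the median of all measured miRNAs as a grey bar and 2-fold lower as a dashed line. miR-20b-5p and miR-93-5p stay below 0 in all, while miR-106b-5p crosses 0 under 6 alternatives and miR-25-3p under 4.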

How the data were processed

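The authors deposited scanner files from Agilent Feature Extraction 10.7, per the submitters' processing notes and the file headers, with a background-subtracted, spatially detrended intensity, a raw mean and local background intensity and total signals per probe and miRNA, unscaled between arrays. They also deposited a table of log2 values, and the sources used here do not describe how it was made. Its 2 columns have floors of -3.32 for the knockout and -3.26 for the control and, over the 257 miRNAs well above background on both arrays, its differences correlated with the unscaled scanner differences (Pearson r = 0.96, across miRNAs of the same arrays). They had the same sign for 219 and were 0 for 8. Since the columns share exact values between miRNAs, a difference of 0 need not mean equal signal. For miR-126-3p the deposited difference was 0, while the scanner difference was 0.35 at the main scaling.

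Each array had 49880 spots of 3101 miRNA probes, 21.1% well above background on the knockout array and 19.6% on the control array, and none saturated. Spots marked as outliers were dropped and log2 intensities averaged per probe. A probe counted when over 50% of its spots were well above background on both arrays. Arrays were scaled to the 75th percentile over such probes, midway between the arrays, and a miRNA was the mean over its probes. The number of arrays limits the precision. An absolute log2 difference of 1 served for counts. Alternatives covered scaling, background correction (normexp, offset 50, limma 3.58.1, followed by quantile normalization), total signals, probe choice, filters, outlier spots and the deposited values. The steps were tested on simulated data. The offset left by the scaling was taken out there before the calls, so that test cannot judge the scaling. Named miRNAs were all members, listed relatives well above background and the 3 nearest in log2 difference. Members and lists were chosen with earlier results of these data known.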

Additional observations from a re-analysis of the deposited data

How the results depend on the processing

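The members' median log2 difference, -0.53, reversed to 0.023 with the software's gene totals, which moved the median of all miRNAs by 0.51. It was -0.10 after scaling to the percentile of all probes (all miRNAs moved by 0.43), -0.12 unscaled (0.41), -0.17 set to spike-ins (0.36), -0.21 in the deposited values (0.22), -0.26 with summed probe totals, an alternative chosen after seeing the data (0.23), -0.35 after normexp with quantile normalization (0.20), -0.35 with a floor (0.22), -0.42 with median scaling (0.12), -0.46 with quantile normalization (0.21) and -0.44 with the brightest probe alone. The floor setting takes in all 1247 miRNAs and counts 5 members, since miR-363-3p enters there although its signal lies below the floor. The 4 measured members stayed near their main values with the floor. They stood at -0.16 for miR-106b-5p, -0.71 for miR-93-5p, -0.35 for miR-25-3p and -1.10 for miR-20b-5p. Less the median of all miRNAs, the members stood at -0.32 at the main setting and ran from -0.45 to -0.21. The count at least 2-fold lower, 1, became 0 under 8 of the 14 alternatives: the percentile of all probes, median scaling, no scaling, spike-ins, normexp with quantile normalization, both totals and the deposited values. A constant added to each difference shifts all members alike in the scalings among these. miR-106b-5p reversed to 0.28 with the percentile of all probes, 0.25 unscaled, 0.21 with spike-ins, 0.34 with gene totals, 0.051 with summed probe totals and 0.12 in the deposited values. miR-25-3p reversed to 0.081, 0.059, 0.013 and 0.21 under the first 4 of these. The set of all miRNAs also widened to 304 with gene totals, 303 with summed probe totals and 304 in the deposited values. Beyond these constants and the wider sets counted in these settings and with the floor, the cause of the shifts was not tested. No paired analysis was possible because each group had 1 array, and no replicate could be left out. The signal of miR-363-3p limits what can be said of it.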

Other observations

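The software's total for a miRNA did not always equal the sum over its probes. For miR-17-5p the knockout array's total was 2009 while its probes summed to 16.6, and on the control array both were 41.0. For the 4 measured members both agreed on both arrays. Over 303 miRNAs the total was more than 1.5 times the probe sum for 58 on the knockout array and 64 on the control array.

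The positions that the scanner files list for the members' 10 probes lie inside the right RefSeq hairpins, and 0 of 10 lie inside the mature miRNA. Mirrored within the hairpin, all 10 do, and all these genes are on the minus strand. RefSeq positions are therefore the ones given above.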
